A study of Mus musculus with 134 samples.

Results

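In a Wnt3a bead experiment, 50 cells carried a transcriptome cluster that is at odds with the place where the cell was picked. They were 31 cells from next to the bead that the study's clustering placed in the Dista cluster (proximal Dista) and 19 cells from the far side that it placed in the Proxi cluster (distal Proxi). Together they are 50 of the 752 cells in both single-cell count tables and of the 545 cells that passed the study's filter of more than 1000 and fewer than 5000 genes. Position and cluster were taken from the study's table of cells and neither was set here. The cluster itself was made from the expression values, so differences between clusters are not findings, and the comparisons below hold the cluster fixed and set cells at 1 position against cells at the other.

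ES-E14TG2a cells, a mouse embryonic stem cell (mESC) line of the 129/Ola strain grown in serum with LIF, were cultured for 12 h on beads that carried Wnt3a, and after the division the 2 daughter cells were separated and picked as proximal (on the bead) or distal (off the bead). Each was profiled by scSET-seq, which maps a histone mark in the nucleus and the cytoplasmic RNA of the same cell. There were 10 experiments with an H3K27me3 antibody and 6 with an H3K4me3 antibody, and every cell of every experiment carried the same line, medium and Wnt3a treatment. For each cell the RNA values count reads on the exons and introns of a gene, without normalization and without molecular identifiers. The labels do not say whether the experiments were separate cultures, so the p-values measure the spread between these experiments.

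A Wnt ligand fixed on a bead reaches the cell from 1 side, so that receptors and beta-catenin gather there and the division plane turns. The daughter that keeps the contact is known to retain naive pluripotency factors such as Nanog and Zfp42 (Rex1), while the daughter away from the source moves towards an epiblast state. The study's Proxi and Dista clusters are named after these positions, with Rpl10a, a protein of the large ribosomal subunit, among the study's markers of Proxi and Ndufb10, a subunit of respiratory complex I, among those of Dista.

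Position was written into the wells as well as into the cells. All proximal cells sat in odd plate columns and all distal cells in even ones, so the column index and the position cannot be told apart. The 96 index pairs were used again in each experiment, and the 50 cells shared 30 of them. The 8-base index sequences of the columns with the most proximal Dista cells and with the largest share of distal Proxi cells are shown beside those of the neighbouring column, because neighbouring columns hold the 2 positions side by side. The capitals mark bases that differ from the neighbour, which were 8 of 8 in each of these column pairs.

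column 1, proximal, 12 of the 50 cells: CGAGTAAT

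column 2, distal, 7 of the 50 cells: TCTCCGGA

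column 7, proximal, 2 of the 50 cells: AGCTTCAG

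column 8, distal, 6 of the 50 cells: GCGCATTA

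Between all odd and even columns the index sequences differed at 3 to 8 bases, with a median of 7. Column 8 held 6 distal Proxi cells among its 10 Dista and Proxi cells, and columns 10 and 11 held none of the 50. The rows held 3 to 11 of them. In all, 6 wells gave such a cell in 3 or more experiments, and well H1 gave 4.

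**Figure D1:**
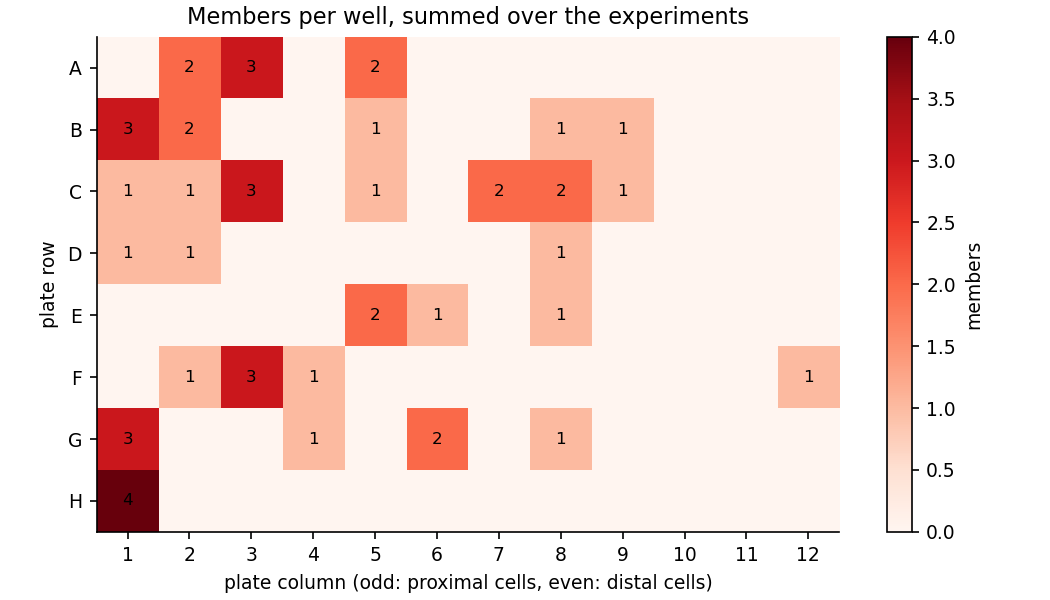
Number of cells whose cluster contradicted their position in each well (rows A to H, columns 1 to 12), summed over 16 experiments; odd columns hold proximal and even columns distal cells. Column 1 held 12 of the 50 cells, and well H1 alone held 4.

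The proximal cells made up 31 of 121 Dista cells, or 25.6% (exact 95% interval 18.1% to 34.4%), and the distal cells made up 19 of 133 Proxi cells, or 14.3% (8.83% to 21.4%). These intervals cover counting error only. Of the 278 proximal cells that passed, 11.2% were Dista, 41.0% Proxi and 47.8% Mix, the third cluster. Of the 267 distal cells, 7.12% were Proxi, 33.7% Dista and 59.2% Mix. Cells of the contradicting kind occurred in 14 of 16 experiments, proximal Dista cells in 13 and distal Proxi cells in 10.

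Within experiments, the proximal share of Dista averaged 22.4% and the distal share of Proxi 11.9%, over 9 experiments with at least 3 cells of each cluster. The difference was 10.5 percentage points ± 13.1 (SD, n = 9 experiments), with 6 experiments higher for Dista and 2 lower. An exact sign-flip permutation test over experiments (two-sided) gave p = 0.0469, which became 0.167 after Benjamini-Hochberg adjustment over the 8 single-value tests, so the difference did not pass. In the H3K27me3 experiments with at least 3 Dista or Proxi cells, the cells of the contradicting kind took 10.0% at the lowest, 26.1% at the median and 50.0% at the highest of the Dista and Proxi cells (n = 8), and in the H3K4me3 experiments 12.9%, 17.9% and 36.4% (n = 5). The ranges overlapped, and the means of 26.1% ± 13.7 and 20.8% ± 9.09 (SD) were not distinguished by an exact permutation test over experiments (two-sided p = 0.461, adjusted 0.614).

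**Figure D2:**
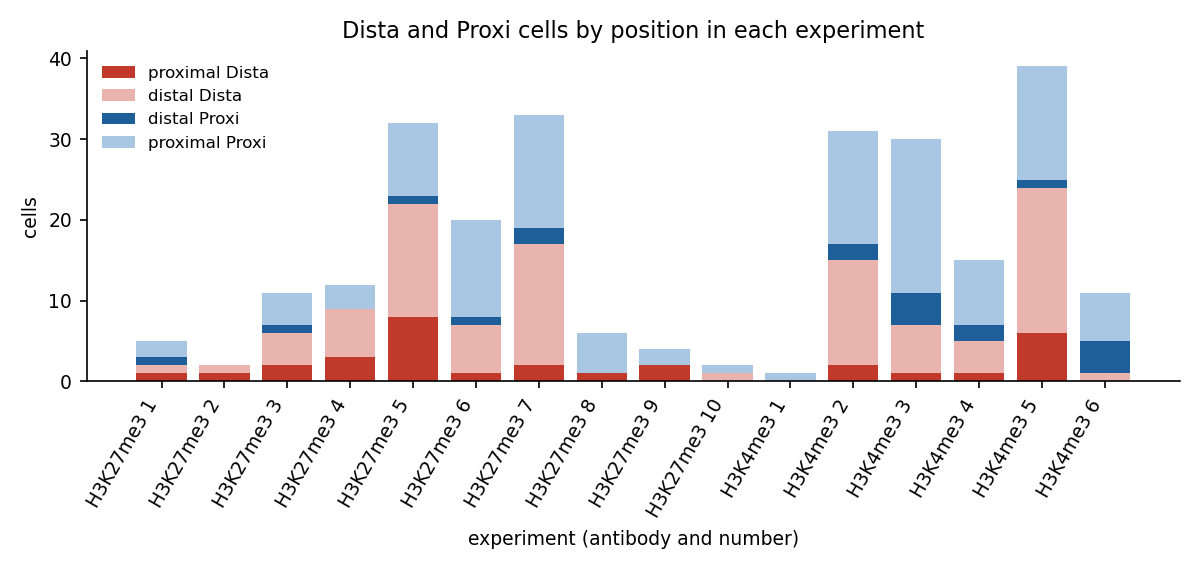
Number of Dista and Proxi cells by position in each of the 16 experiments (stacked bars, darker colours for the cells whose cluster contradicted their position). The experiment H3K27me3 5 held the most such cells, 9, and H3K4me3 5 the next most, 7.

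The partner of each cell was read as the neighbouring well of the row (columns 1 and 2, 3 and 4, and so on). The study picked daughters as pairs, but its table does not state in words which wells hold a pair, and the study's own assignment of pairs was not used here. The partners are therefore neighbours in the plate and may not be the sisters the study paired. The study reported no daughter pairs inside the Proxi or the Dista cluster, so the same-cluster neighbours counted below are at odds with its pairs. The partners of the 31 proximal Dista cells were Dista in 21 cases, Mix in 8, filtered out in 2 and Proxi in 0. From the share of each cluster among all distal cells of the same experiment, 15.3 Dista and 1.48 Proxi partners were expected. The partners of the 19 distal Proxi cells were Proxi in 10 cases, Mix in 5, filtered out in 4 and Dista in 0, where 7.88 Proxi and 1.48 Dista were expected. Thus 67.7% of the proximal Dista cells and 52.6% of the distal Proxi cells had a plate neighbour of their own cluster. The distal Dista cells as a whole had a Proxi partner in 47 cases and a Dista partner in 21.

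No pair of neighbouring wells held a proximal Dista cell beside a distal Proxi cell. Of 78 pairs from 12 experiments with both cells in these clusters, 47 had the order of their positions, 21 were both Dista, 10 were both Proxi and 0 were swapped, where 0.790 swapped pairs were expected from the numbers of each kind in each experiment. With the next well that is not the partner, 44 such pairs gave 31, 8, 4 and 1, with 0.792 swapped pairs expected. With fewer than 1 swapped pair expected, the count of 0 does not separate partners from other neighbours. No test was made of these counts, which rest on few cells in each experiment. Among the study's daughter pairs none lay inside Dista or Proxi, so the 21 and 10 pairs counted here are not read as sisters.

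The depth of the contradicting cells was not distinguished from that of other cells of their cluster. Of the 31 proximal Dista cells, 28 had a distal Dista cell in their experiment and entered the comparisons within experiments. Total counts ran from 5693 over a median of 97069 to 1798152 in proximal Dista cells, against a median of 75461 in distal Dista cells. In distal Proxi cells they ran from 21765 over 111867 to 2052857, against a median of 116834 in proximal Proxi cells. Within experiments the difference in mean log10 total counts was 0.0513 ± 0.202 (SD, n = 11 experiments) for proximal Dista against distal Dista, with 8 experiments higher and 3 lower (exact sign-flip p = 0.426, adjusted 0.614). For distal Proxi against proximal Proxi it was 0.0228 ± 0.229 (SD, n = 10), with 5 experiments higher and 5 lower (exact sign-flip p = 0.691, adjusted 0.701). In neither case was the difference larger than the spread between experiments.

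The numbers of genes at equal depth were not distinguished either. After each cell was thinned to 5000 counts, which all 254 Dista and Proxi cells reached, proximal Dista cells held a mean over experiments of 778 genes and distal Dista cells 817, a difference of -38.9 ± 120 (SD, n = 11; exact sign-flip p = 0.303, adjusted 0.605). Distal Proxi cells held 790 and proximal Proxi cells 771, a difference of 19.4 ± 173 (SD, n = 10; exact sign-flip p = 0.701, adjusted 0.701). The precursor rRNA gene Rn45s took a median of 7.20% of the counts in proximal Dista cells and 6.64% in distal Dista cells. It took 10.6% in distal Proxi and 7.02% in proximal Proxi cells. In H3K4me3 3 the gene Brpf3 took 31.1% of the summed counts in proximal Dista and 18.2% in distal Dista cells. There it took 17.4% in distal Proxi and 32.3% in proximal Proxi cells. Thinning to equal totals thus left unequal counts for the other genes there. The part of these values in the gene numbers and in the results below was not tested.

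How near each cell lay to the other cluster was measured with a likeness margin, the Pearson correlation across genes of its log2(CPM + 1) (CPM, the counts scaled to an equal total per cell) with the mean of the distal Dista cells of its experiment minus that with the mean of its proximal Proxi cells, each cell being left out of its own mean. A higher margin thus means a profile nearer to distal Dista. Its 0 is not a neutral point, since the number of cells behind each mean differs between experiments and distal Dista cells themselves averaged below 0, so margins were compared only within experiments and a cell was not assigned to a side. The margin draws on the same expression values as the clusters. The means behind it differ in position and plate column as well as in cluster. Nearness to the other cluster and nearness to cells of the same position therefore cannot be told apart by it.

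The mean margin was -0.0169 in proximal Dista cells and -0.00237 in distal Dista cells, a difference of -0.0145 ± 0.0225 (SD, n = 9 experiments), lower in 7 and higher in 2 (exact sign-flip p = 0.0625, adjusted 0.167). It was 0.00863 in distal Proxi cells and -0.0171 in proximal Proxi cells, a difference of 0.0257 ± 0.0345 (SD, n = 8), higher in 6 and lower in 2 (exact sign-flip p = 0.0625, adjusted 0.167). Neither difference passed after adjustment. After thinning to 5000 counts the differences shrank to -0.00302 (exact sign-flip p = 0.824) and 0.00713 (exact sign-flip p = 0.367), so at that depth a shift was not detectable. With Spearman's correlation on all counts they were -0.0191 (exact sign-flip p = 0.0508, adjusted 0.167) and 0.0386 (exact sign-flip p = 0.00781, adjusted 0.0625). Over genes with a mean of at least 10 CPM they were -0.0219 and 0.0352 (exact sign-flip p = 0.0547 and 0.0859). None of these passed after adjustment.

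**Figure D3:**
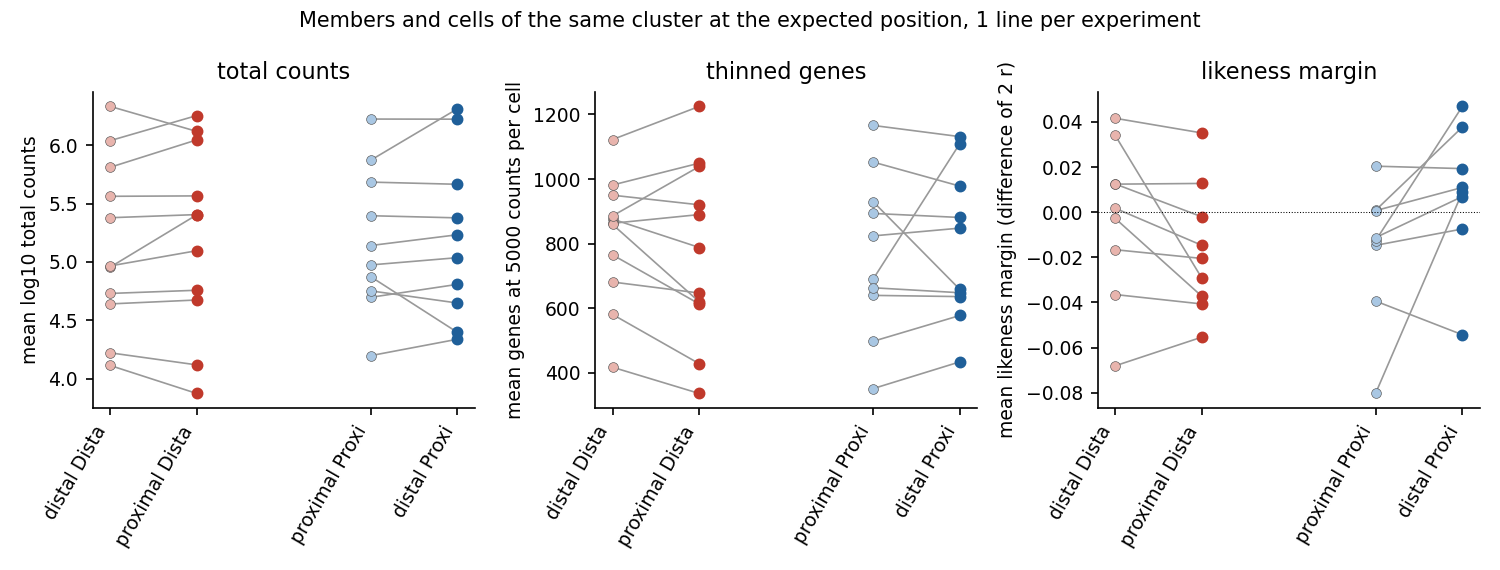
Experiment means of log10 total counts, of genes per cell at 5000 counts and of the likeness margin, with 1 line joining cells of the same cluster at the expected (pale) and the contradicting (dark) position in each experiment. The lines for counts and genes go both ways, while the margin was lower in 7 of 9 experiments for proximal Dista cells and higher in 6 of 8 for distal Proxi cells, with adjusted p = 0.167 by the exact test in both.

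Of the study's Dista markers 3 were followed here, and its full marker sets were not used. Ndufb10 was detected in a smaller share of the Dista cells picked next to the bead. Rps4x and Rpl37 had a count in 29 of 31 of these cells each. Ndufb10 lies on chromosome 17 of NCBIM37 (the build of mm9), from 24859005 to 24861423 on the minus strand, and encodes an accessory subunit of the complex that passes electrons from NADH into the respiratory chain. It had a count in 7 of 31 proximal Dista cells, or 22.6% (exact 95% interval 9.59% to 41.1%), and in 45 of 90 distal Dista cells, or 50.0%. It had one in 27 of 114 proximal Proxi cells, or 23.7%, and in 7 of 19 distal Proxi cells, or 36.8%. Thinned to 5000 counts, it was left in 3 of 31 proximal Dista, 22 of 90 distal Dista, 8 of 114 proximal Proxi and 0 of 19 distal Proxi cells. These shares pool experiments that differed in depth and in the mix of positions. The shallow experiments H3K27me3 4 and 5 held 3 and 8 of the 31 proximal and 6 and 14 of the 90 distal Dista cells. No cell type that should lack the gene was in the tables, so a background share could not be given.

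By experiment, the mean log2(CPM + 1) of Ndufb10 in proximal Dista cells was 0 at the lowest, 0 at the median of the experiments and 3.68 at the highest, against 0 to 6.81 in distal Dista cells. The groups overlapped over the experiments, but within them the level was lower in 7, equal at 0 in 2 and higher in 2. The mean difference was -2.21 ± 2.73 (SD, n = 11; exact sign-flip p = 0.0234). It did not pass after adjustment over all 6903 genes tested in this way (adjusted p = 0.416). The same cells were tested by gene with edgeR below, where the summed counts of Ndufb10 were 0, 0, 2, 0, 0 and 16 in proximal and 0, 3, 16, 178, 2667 and 350 in distal Dista cells of 6 experiments. Between the paired sums the log2 fold change was -4.86 ± 2.10 (SE, adjusted p = 0.759 by edgeR's quasi-likelihood test), a value that depends on the fit's prior count because 4 of the 6 proximal sums were 0.

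Rps4x, a protein of the small ribosomal subunit and another Dista marker of the study, was at a higher mean in the proximal cells. It lies on chromosome X from 99380280 to 99384733 on the minus strand. Its mean log2(CPM + 1) ran from 8.59 to 12.0 in proximal Dista cells and from 4.20 to 10.6 in distal Dista cells, which overlapped, yet it was higher in proximal Dista cells in 11 of 11 experiments. The mean difference was 1.63 ± 1.65 (SD, n = 11; exact sign-flip p = 0.000977, the smallest that 11 experiments can give, adjusted p = 0.384). On the thinned counts the difference was 2.11 with p = 0.119 by the same exact test, and in edgeR on sums it was 0.28 ± 0.39 (SE, adjusted p = 0.869). Rpl37, the third Dista marker followed here and part of the large subunit, differed by 0.89 ± 4.03 (SD, n = 11; exact sign-flip p = 0.490).

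The Proxi markers followed here did not share a direction over the experiments between proximal and distal Dista cells, and none passed the adjusted threshold. Rpl10a was detected in 28 of 31 proximal Dista cells (90.3%) and in 87 of 90 distal Dista cells (96.7%). Its level differed by -1.21 ± 1.95 (SD, n = 11; exact sign-flip p = 0.0654), lower in 6 experiments and higher in 5. Over experiments with at least 2 cells of each kind the difference was -0.66 (exact sign-flip p = 0.312). Rnf7, a RING subunit of cullin ubiquitin ligases, differed by -1.09 ± 1.20 (SD, n = 11), lower in 7 experiments and higher in 2 (exact sign-flip p = 0.0156, adjusted 0.384). Ftl1, the ferritin light chain, differed by -0.05 ± 0.92 (SD, n = 11; exact sign-flip p = 0.854), higher in 7 experiments and lower in 4. In edgeR on sums Rpl10a differed by -0.10 ± 0.53, Rnf7 by -1.65 ± 1.86 and Ftl1 by 0.25 ± 0.36 (SE, adjusted p = 0.967, 0.859 and 0.870).

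Of the naive pluripotency factors, Nanog had a count in 54.8% of proximal Dista and 71.1% of distal Dista cells, and its level differed by -1.55 ± 2.89 (SD, n = 11), lower in 7 experiments and higher in 4 (exact sign-flip p = 0.0840, adjusted 0.588). Zfp42 had a count in 64.5% and 68.9%, and differed by 1.40 ± 3.69 (SD, n = 11), higher in 7 and lower in 4 (exact sign-flip p = 0.239, adjusted 0.755). Neither difference was larger than the spread between experiments. Nanog moved to -0.84 without H3K27me3 1, which held 1 cell of each kind (exact sign-flip p = 0.168), and to -0.47 over experiments with at least 2 cells of each kind. In edgeR on sums, described below, Nanog differed by 0.43 ± 1.49 (SE, adjusted p = 0.952) and Zfp42 by 0.72 ± 0.90 (SE, adjusted p = 0.867), so no direction is drawn for Nanog.

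In distal Proxi cells the marker with the lowest p was Zfp42. Its mean log2(CPM + 1) was 0 at the lowest and 5.63 at the highest over 10 experiments, against 2.77 to 8.44 in proximal Proxi cells, with overlapping ranges. It was lower in 8 and higher in 2, with a mean difference of -2.37 ± 2.49 (SD, n = 10; exact sign-flip p = 0.0215), which did not pass over all 7417 genes tested (adjusted p = 0.418). Over experiments with at least 2 cells of each kind the difference was -0.81 (exact sign-flip p = 0.5). The share of cells with a count did not follow it, with 68.4% of distal and 64.0% of proximal Proxi cells.

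The other markers of distal Proxi cells did not differ beyond the spread between experiments. Nanog had a count in 73.7% of distal and 63.2% of proximal Proxi cells, and its level differed by 0.63 ± 4.67 (SD, n = 10; exact sign-flip p = 0.682). Rpl10a had a count in 19 of 19 distal Proxi cells and differed by 0.64 ± 1.80 (SD, n = 10; exact sign-flip p = 0.338). Ndufb10 differed by 0.12 ± 1.34 (SD, n = 10; exact sign-flip p = 0.789), with 4 experiments higher and 4 lower.

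**Figure D4:**
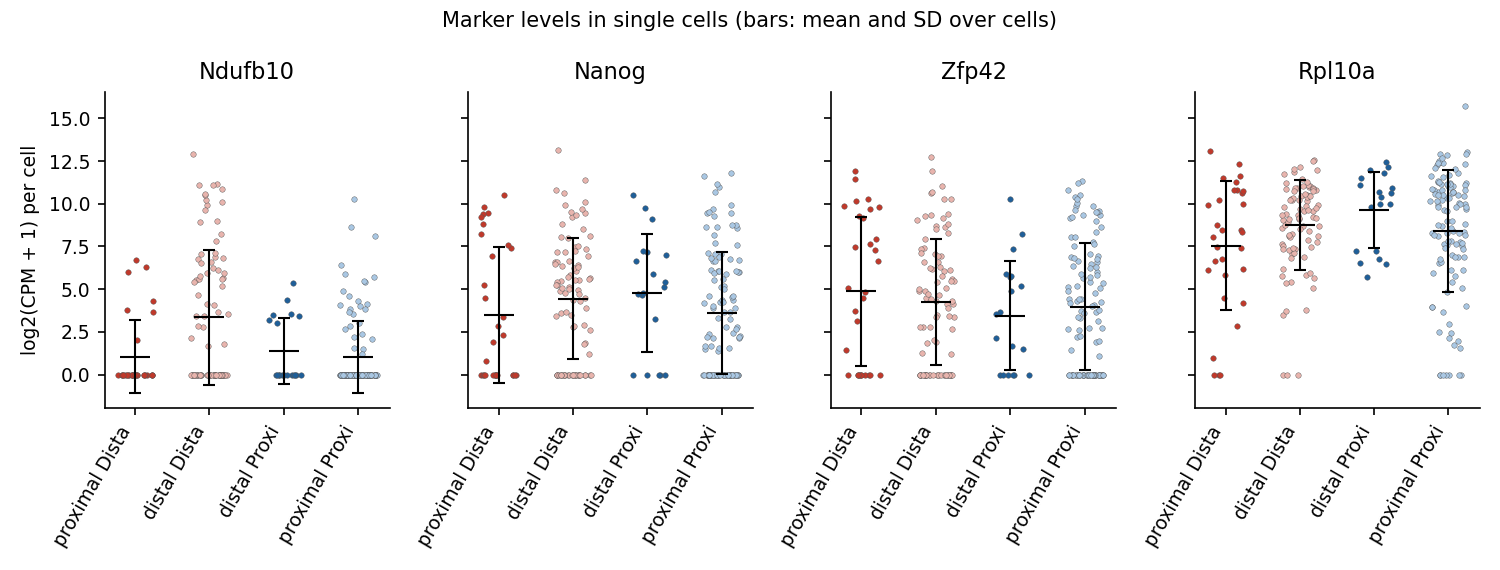
log2(CPM + 1) of Ndufb10, Nanog, Zfp42 and Rpl10a in each proximal Dista (31), distal Dista (90), distal Proxi (19) and proximal Proxi (114) cell; bars give the mean and SD over cells, which are not replicates. Ndufb10 had a count in 7 of 31 proximal Dista cells and in 45 of 90 distal Dista cells.

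**Figure D5:**
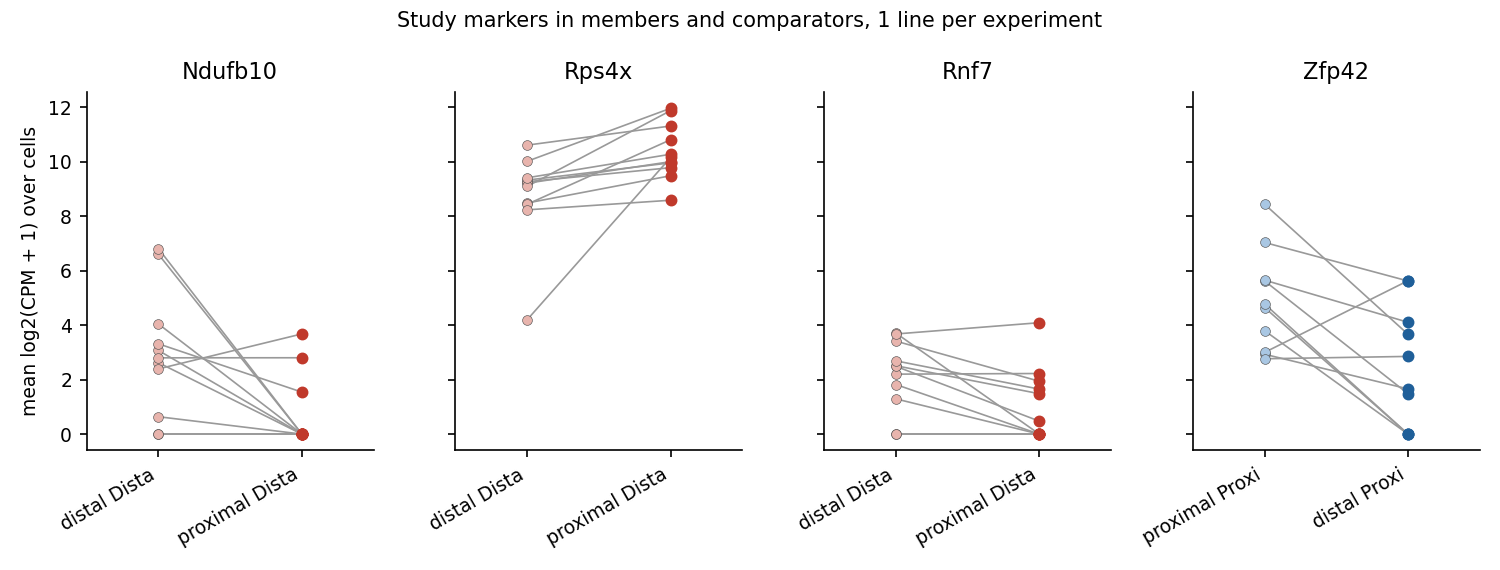
Mean log2(CPM + 1) over cells of Ndufb10, Rps4x and Rnf7 in distal (pale) and proximal (dark) Dista cells, and of Zfp42 in proximal (pale) and distal (dark) Proxi cells, with 1 line per experiment. In the contradicting cells Rps4x was higher in 11 of 11 experiments, Ndufb10 lower in 7 of 11 and Zfp42 lower in 8 of 10, with none of the 4 genes passing over all genes.

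Over all genes the same test leaned one way, and the marker values are to be read against that. Genes with a count in at least 10% of the cells compared were tested, and the exact sign-flip test (two-sided) called 0 of 6903 genes between proximal and distal Dista cells at an adjusted p below 0.05 (0%). At an unadjusted p below 0.05 there were 658 (9.53%), of which 90 were higher and all others lower in proximal Dista cells. For distal against proximal Proxi cells it called 0 of 7417 (0%), with 686 unadjusted (9.25%), of which 66 were higher and 620 lower in distal Proxi cells. The contradicting cells were fewer, 28 against 88 and 19 against 102. The 10% filter took both kinds together, so a gene could enter through the comparison cells alone. The part of the cell numbers and of the filter in the lean was not tested. Over all genes, 42.7% and 47.2% were higher in the contradicting cells by the mean difference, and the median difference was -0.09 and -0.04.

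The smallest p that the experiments allow was reached by 6 genes in proximal Dista cells (0.0869%). Rps4x was the one that was higher. Lower in 11 of 11 experiments were Lig1, the DNA ligase of the replication fork, by -2.48 ± 2.32 (SD, n = 11), Xpo6, a nuclear export receptor, by -2.45 ± 2.67, Tuba4a, an alpha-tubulin, by -2.24 ± 2.44, Rnf181 by -2.17 ± 1.84 and Dab1, an adaptor of Reelin signalling, by -1.36 ± 1.09. In distal Proxi cells 12 genes reached it (0.162%), all lower in 10 of 10 experiments. Among them were Baz1b, a chromatin remodeller subunit, by -1.75 ± 1.51 (SD, n = 10), Chaf1b, a subunit of the histone chaperone CAF-1, by -1.67 ± 1.76, Nup205, a nuclear pore protein, by -1.50 ± 1.06, Rlim, a ubiquitin ligase, by -1.35 ± 1.42, and Bmp4, a ligand of the BMP pathway, by -1.10 ± 1.68. These genes were chosen after their values were seen, and none passed after adjustment. Most experiments held few contradicting cells, in which a rare gene is often without a count. Lower values in every experiment are therefore not read as a result, and the part of the filter and cell numbers was not tested.

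By gene group, 71 respiratory chain genes were tested in proximal Dista cells, and 8 were at an unadjusted p below 0.05, 6 lower and 2 higher, with a median difference of -0.37 against -0.09 over all genes. That share is near the 9.53% of all genes at this threshold, most of which were lower too, so the members are given as values. Beside Ndufb10, the complex I subunit Ndufa5 was lower in 10 experiments and higher in 0, by -1.60 (exact sign-flip p = 0.00195), and Ndufb4 was lower in 8 and higher in 0, by -1.10 (exact sign-flip p = 0.00781). Ndufv1, which binds NADH in the same complex, was higher in 9 and lower in 1, by 1.75 (exact sign-flip p = 0.0293). The median share of counts on the whole list was 0.974% in proximal Dista, 1.32% in distal Dista, 1.08% in distal Proxi and 1.21% in proximal Proxi cells.

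Of 78 ribosomal protein genes, 2 were at an unadjusted p below 0.05 in proximal Dista cells, Rps4x and Rps27a, both higher, with a list median of -0.19. In distal Proxi cells 7 of 79 were, 6 higher and 1 lower, with a list median of 0.21 against -0.04 over all genes. Higher there were Rps3 by 1.11 in 9 of 10 experiments (exact sign-flip p = 0.00977) and Rpl18 by 1.58 in 9 (exact sign-flip p = 0.0176), while Rpl19 was lower in 8, by -1.18 (exact sign-flip p = 0.0117). These are few of the list, and both shares lie under the 9.53% and 9.25% of all genes.

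Of PRC2, the complex that writes H3K27me3, 3 of 8 tested genes were at an unadjusted p below 0.05 in distal Proxi cells, all lower, beside 9.25% of all genes, of which 620 of 686 were lower. They were Eed, a core subunit that reads the mark, by -1.94 (lower in 9 of 10; exact sign-flip p = 0.00781), Mtf2, which guides the complex to CpG islands, by -2.89 (lower in 9; exact sign-flip p = 0.00977), and Rbbp4, a histone-binding subunit, by -1.62 (lower in 8; exact sign-flip p = 0.0391). In proximal Dista cells 0 of 8 were, while edgeR on sums gave 2 of 8 there at an unadjusted p below 0.05, both lower, beside 5.88% of all genes. The PRC2 cofactor Aebp2, among the study's markers of Mix, differed there by -0.68 ± 1.17 (SD, n = 11; exact sign-flip p = 0.0859) and in distal Proxi cells by 0.50 ± 1.06 (SD, n = 10; exact sign-flip p = 0.170).

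By the exact sign-flip test, 9.53% of all genes in proximal Dista and 9.25% in distal Proxi cells were at an unadjusted p below 0.05. Of these, 90 of 658 and 66 of 686 were higher, so no direction is drawn for the pluripotency and Wnt lists. Naive pluripotency genes were at an unadjusted p below 0.05 in 1 of 12 for proximal Dista cells, Tbx3 (-0.97), and in 2 of 12 for distal Proxi cells, Zfp42 and Fgf4 (-0.77), all lower. Core pluripotency genes gave 1 of 9 and 0 of 9, the 1 being Lin28a (-1.16). Of the Wnt/beta-catenin targets, of which most were too rare to test, 0 of 5 and 1 of 4 were, the latter being Znrf3 (-0.77), a feedback inhibitor of Wnt receptors. Axin2, Sp5, Lef1, Tcf7, Cdx2 and Rnf43 had no count in any of the 31 proximal Dista cells, and Sp5, Cdx2, Rnf43 and Tnfrsf19 none in the 19 distal Proxi cells, so a difference in this readout of the ligand was not detectable at this depth.

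Of the lists of other cell types, the fibroblast and trophectoderm lists had medians near 0 and the primitive endoderm list did not. The summed level of the fibroblast list had a median of 0 CPM in all 4 kinds of cell. It had a count in 13 of 31 proximal Dista and 13 of 90 distal Dista cells. Among Proxi cells it had one in 7 of 19 distal and 25 of 114 proximal cells. Lum had no count in either kind of contradicting cell. The trophectoderm list had a median of 0 CPM in proximal Dista and 4.32 CPM in distal Proxi cells, without a count of Eomes or Elf5. It had a count in 11 of 31 proximal Dista and 22 of 90 distal Dista cells. Among Proxi cells it had one in 10 of 19 distal and 40 of 114 proximal cells. The primitive endoderm list had a median of 75.3 CPM in proximal Dista and 31.7 CPM in distal Dista cells, and of 221 CPM in distal Proxi and 38.5 CPM in proximal Proxi cells, with a count in 17 of 19 distal Proxi cells and up to 4730 CPM. The part of these counts in the results was not tested. These medians and numbers of cells pool different experiments, which differed in depth. A higher median in distal than in proximal Proxi cells was not particular to this list. The naive pluripotency list had 1303 against 479 CPM there, while the respiratory chain list was lower, with 10823 against 12125 CPM. The defining factors of primitive endoderm Gata4 and Sox7 were at 0 in both kinds of contradicting cell, Gata6 and Sox17 also in proximal Dista cells. Of the primitive endoderm genes, 0 of 5 and 0 of 6 were at an unadjusted p below 0.05. Of the genes of 2-cell-like cells, a rare totipotent-like state of mESC cultures, 4 of 5 were lower in proximal Dista cells at that threshold (Zscan4c, Zscan4d, Zscan4f and Gm8300). Over all genes 9.53% were at this threshold in proximal Dista cells, with 90 of 658 higher, so most of them were lower too. The Zscan4 genes are near-identical copies whose reads may be split, so they are not read as separate results. The 2-cell-like list had a count in 12 of 31 proximal and 53 of 90 distal Dista cells. In edgeR on sums, described below, 1 of 1 tested gene of this list was lower in proximal Dista cells at that threshold. With both clusters fitted together 0 of 4 were at that threshold. A loss of the 2-cell-like state was not tested.

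The counts were also summed per experiment and position and tested by gene with edgeR's quasi-likelihood test, with the experiment as a block and Benjamini-Hochberg adjustment, where an experiment held at least 2 cells of each kind. Between proximal and distal Dista cells, 0 of 2294 genes passed in 6 experiments (0%), and 135 had an unadjusted p below 0.05 (5.88%), 131 of them lower and 4 higher. DESeq2 called 29 and limma 0. The median log2 fold change over all genes was -1.02 in this fit and -0.64 in DESeq2, so single values are to be read against that shift.

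By the rule for named genes, Adss, which starts AMP synthesis from IMP, stood first among those higher in proximal Dista cells in every experiment. Its CPM was 5.84, 174, 37.4, 3716, 1448 and 326 in proximal and 0, 71.4, 23.8, 6.96, 32.5 and 21.8 in distal Dista cells, higher in 6 of 6, with a log2 fold change of 4.20 ± 1.38 (SE, adjusted p = 0.759 by edgeR). Naca, of the complex that binds nascent polypeptides, was also higher in 6 of 6, by 1.20 ± 0.71. The others were Mtarc2, Ppan and Ipmk. None passed.

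Among the genes lower in every experiment, Jag1, a ligand of Notch, had 14.2, 11935, 3097, 1620, 1.95 and 518 CPM in proximal and 26.9, 16644, 3367, 5568, 36.6 and 1450 CPM in distal Dista cells. Its level varied far more between experiments than between positions, with a difference within experiments of -1.37 ± 0.40 (SE, adjusted p = 0.759 by edgeR). Tuba4a had 0, 0, 1, 0, 0 and 1 counts in proximal against 42, 2, 7, 18, 291 and 131 counts in distal Dista cells. The others were Micu2, Rbm25 and Cdc37, and none passed. Aebp2 fell short as well, with -1.25 ± 0.37 (SE, adjusted p = 0.759 by edgeR), lower in 5 of 6. The value was -0.28 without H3K4me3 5, -0.71 without H3K4me3 2 and -0.04 in the H3K27me3 experiments alone. Its level was far from even, with 48436 CPM in proximal Dista cells of H3K27me3 4 and 0 CPM in those of H3K4me3 2.

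Between distal and proximal Proxi cells, 1 of 1559 genes passed in 5 experiments (0.0641%), and 135 had an unadjusted p below 0.05 (8.66%), all of them lower, with a median log2 fold change of -1.33 over all genes. The gene was Pcca, a subunit of the mitochondrial propionyl-CoA carboxylase, on chromosome 14 from 122933546 to 123290322 on the plus strand. Its CPM was 0, 0, 75094, 157082 and 12363 in distal and 269, 43.3, 144360, 216931 and 15245 in proximal Proxi cells of H3K27me3 7 and H3K4me3 2, 3, 4 and 6. It was lower in 5 of 5, by -2.89 ± 0.59 (SE, adjusted p = 0.0019 by edgeR). The call was lost without H3K27me3 7 (adjusted p = 0.838), without H3K4me3 2 (adjusted p = 0.732), with DESeq2 (adjusted p = 0.191) and without the block. Pcca took from 0% to 29.2% of the counts of single proximal Proxi cells and from 0% to 16.3% of those of distal Proxi cells, and what gives these counts was not tested.

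No other gene passed in distal Proxi cells. Hspb1, a small heat shock protein, had 5, 0, 41, 1 and 342 counts in distal against 1082, 4426, 1298, 54 and 709 in proximal Proxi cells (adjusted p = 0.433 by edgeR). Ndufb6, another complex I subunit, had 558, 381, 529, 55.7 and 124 CPM in distal against 317, 126, 2.34, 7.65 and 19.7 CPM in proximal Proxi cells, higher in 5 of 5, by 2.07 ± 1.77 (SE, adjusted p = 0.750 by edgeR). Erg, Rbm42, Haus4 and Cntnap5a were higher, and Chp1, Cab39 and Rabac1 lower, in 5 of 5 by the same rule without passing.

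With both clusters in 1 fit over 11 pairs of sums, 0 of 4442 genes differed between proximal and distal cells (0%), and 147 had an unadjusted p below 0.05 (3.31%). DESeq2 called 12 and limma 0. Rpl34, of the large ribosomal subunit, was lower in proximal cells in 11 of 11 pairs, by -1.60 ± 0.77 (SE, adjusted p = 1 by edgeR). The test of whether the position difference itself differed between Dista and Proxi cells passed for 1 of 4442 genes (0.0225%), with 557 at an unadjusted p below 0.05 (12.5%). That gene was Brpf3, a scaffold of histone acetyltransferase complexes, on chromosome 17 from 28938035 to 28975491 on the plus strand. In the sums of at least 2 cells that were tested it had 0 or 1 counts in proximal Dista cells, 1 to 416 counts in distal Dista cells, and 17.4% and 18.5% of all counts in the distal Proxi sums of H3K4me3 3 and 4, where the proximal Proxi sums held 32.3% and 23.1%. Each of these experiments had a single proximal Dista cell, which was outside the test and held 31.1% and 26.6%, above the 18.2% and 19.7% of the distal Dista cells there. Those 2 cells did not lack the gene, therefore. Over all experiments it had a count in 4 of 31 proximal Dista and 36 of 90 distal Dista cells. With sums of at least 1 cell the call was lost (adjusted p = 0.051 by edgeR). Only H3K27me3 7 and H3K4me3 2 gave tested sums of both clusters. There Brpf3 had 0 and 0 counts in proximal Dista and 206 and 416 in distal Dista cells. It had 0 and 0 in distal Proxi and 6 and 0 in proximal Proxi cells. In the other experiments tested, cluster and experiment cannot be told apart for this gene.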

How the data were processed

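Per the labels and the study's methods, the authors used zUMIs with STAR on mm9 to assign reads to wells and to count them over exons and introns of each gene, without molecular identifiers. The deposited values are these raw counts, not normalized. Position and cluster of each cell came from the study's supplementary table. The cells and gene lists were chosen with earlier results of these data known.

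Cells with more than 1000 and fewer than 5000 genes had passed. Counts were summed per experiment and position over at least 2 cells and tested with edgeR 4.0.16 (TMM, low-count filter, quasi-likelihood, experiment as a block). Proximal and distal cells were paired by the shared experiment given in the labels. Single values were compared within experiments with exact sign-flip tests, two-sided, on log2(CPM + 1) with a pseudocount of 1, and adjusted (Benjamini-Hochberg) over the 8 single values or over all genes. Scripts were tested on simulated data. Alternatives were DESeq2 1.42.0, its size factors, no filter, 1 or 3 cells in a sum, no replicate block, limma 3.58.1, each antibody alone, thinning, a pseudocount of 10 and each experiment left out. For the margin they were also Spearman's correlation and genes with a mean of at least 10 CPM. The sign-flip tests over genes and their alternatives were added after the data were seen.

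Named were the 4 markers, the study's markers followed here and the most abundant genes of each list. In each position fit the 5 genes with the lowest p in each direction were added, among those changed alike in every experiment. Values of most list genes so named are not printed, since none passed. Doublets were not called. Each cell was picked by hand, and whether each well held a single cell was not tested. R 4.3.3 ran the fits. All else was done in Python 3.11.15 (pandas 2.3.3, NumPy 2.4.6, SciPy 1.17.1), and figures were drawn with matplotlib 3.10.9. Depth of the 50 cells ran from 5693 to 2052857 counts, and intervals cover counting error only. Genomic libraries were not used here.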

Additional observations from a re-analysis of the deposited data

Results flagged for a closer look

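Among the 10 experiments with distal Proxi cells, H3K27me3 3 stood apart in the number of genes at 5000 counts, where its single distal Proxi cell held 1110 genes and its 4 proximal Proxi cells a mean of 690, a difference of 420 against -272 to 82.9 in the others. The gap to the next experiment was 48.7% of the whole range. Of 9 groups of experiments tested in this way 1 stood apart, and chance alone gives about 1 in 20. Without that experiment the mean difference was -25.1 (exact sign-flip p = 0.602) in place of 19.4.

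Brpf3 was singled out because the position difference in Dista cells differed from that in Proxi cells by -7.86 on the log2 scale (adjusted p = 1.52e-22 by edgeR's quasi-likelihood test), against a median of -2.55 over all genes of that test. The proximal Dista sums held 0 or 1 counts, so the size depends on the prior count of the fit and is no bound. The adjusted p was 0.0884 with DESeq2, 0.0974 without the block, 0.805 with limma and 0.780 in the H3K27me3 experiments alone. It was 0.051 with sums of at least 1 cell, which take in 2 proximal Dista cells with 31.1% and 26.6% of their counts on Brpf3.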

How the results depend on the processing

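The calls by gene depended on the processing. For proximal against distal Dista cells, 0 genes in edgeR became 29 with DESeq2 and 6 in the H3K4me3 experiments alone, and stayed at 0 with each experiment left out. For distal against proximal Proxi cells, 1 gene became 84 with DESeq2, of which Pcca was none, 3 without the filter and 0 with DESeq2's size factors, with sums of at least 1 cell, with limma and in the H3K4me3 experiments alone, and ranged from 0 to 3 with each experiment left out: 0 without H3K27me3 7 or H3K4me3 2 and 3 without H3K4me3 4. For both clusters together, 0 became 12 with DESeq2, 3 with its size factors, 2 without the filter and 2 in the H3K4me3 experiments alone, and ranged from 0 to 3: 3 without H3K27me3 3, 1 without H3K4me3 4 and 2 without H3K4me3 6. For the difference between clusters, 1 became 115 with DESeq2, 19 with sums of at least 1 cell, 3 with at least 3 cells, 0 with limma, 0 in the H3K27me3 experiments alone and 2 in the H3K4me3 experiments alone, and stayed at 1 with each experiment left out. Distal Proxi cells could not be fitted in the H3K27me3 experiments alone, which left 1 experiment. Without the replicate block, which pairs positions within experiments, the counts were 0 for Dista, 0 for Proxi, 4 for both and 0 for the difference between clusters. The cause of these changes was not tested.

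Of the single values none passed after adjustment, and several turned. Total counts of proximal Dista cells differed by -0.0249 (log10) with at least 2 cells of each kind, and by 0.0114 to 0.0804 with each experiment left out. Total counts of distal Proxi cells differed by -0.0118 on medians, and by -0.0237 to 0.0784. Genes of proximal Dista cells differed by 51.0 without thinning (-58.1 to -18.8 left out), and those of distal Proxi cells by -32.1 at 20000 counts (-25.1 to 51.8). The margin ranged from -0.0179 to -0.0084 and from 0.0166 to 0.0315, and lay beyond these ranges with Spearman's correlation (-0.0191 and 0.0386) and after thinning (-0.00302 and 0.00713). The Dista minus Proxi share ranged from 7.70 to 12.3 points, and the antibody difference from 1.96 to 9.27, with -0.273 for at least 10 cells. Ndufb10 in distal Proxi cells turned to -0.038 with a pseudocount of 10 and -0.62 after thinning, and ranged from -0.12 to 0.31, below 0 (-0.01, -0.02 and -0.12) without H3K27me3 7, H3K4me3 3 or H3K4me3 5. Nanog there ranged from -0.31 to 1.41, below 0 without H3K27me3 1. With each experiment left out, Ndufb10 in proximal Dista cells lay between -2.56 and -1.75, Rps4x between 1.20 and 1.76 and Zfp42 in distal Proxi cells between -2.92 and -2.10. Other settings went beyond these: Ndufb10 was -1.26 with a pseudocount of 10 and -1.48 after thinning, Rps4x 0.97 with at least 2 cells of each kind and 2.11 after thinning, and Zfp42 -1.58 with a pseudocount of 10 and -0.81 with at least 2 cells.

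The depth of 5693 counts in the shallowest of the 50 cells and the 2 to 8 contradicting cells in each sum limit what can be seen of genes with few counts.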

Other observations

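Genes of the cell cycle were present in most of the contradicting cells. Pooled over the cells of all experiments, the S phase list had a summed median of 1322 CPM in proximal Dista and 2012 CPM in distal Dista cells. It was 2202 CPM in distal Proxi and 1256 CPM in proximal Proxi cells. In proximal Dista cells 1 of 20 of its genes was at an unadjusted p below 0.05 by the exact sign-flip test, Mcm4, part of the replicative helicase, by -0.78. In distal Proxi cells 2 of 21 were, Chaf1b and Fen1, the nuclease that trims Okazaki fragments, by -1.67 and -0.90. The G2/M list gave 4 of 21 in proximal Dista cells, with Ube2c (-2.40), Ccnb1 (-1.35) and Cenpe (-0.43) lower and Aurkb (1.09) higher, and 0 of 22 in distal Proxi cells. Over all genes 9.53% were at this threshold in proximal Dista cells, with 90 of 658 higher, and 9.25% in distal Proxi cells. None passed over all genes.

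Pooled in the same way, apoptosis genes and p53 targets had a summed median of 319 CPM in proximal Dista and 262 CPM in distal Dista cells. It was 516 CPM in distal Proxi and 79.2 CPM in proximal Proxi cells. Of the tested genes, 0 of 7 and 0 of 6 were at an unadjusted p below 0.05.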
